A study of Mus musculus with 28 samples.

Results

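Cyp4a14, Acot1 and Vnn1 are mouse genes known as targets of PPARalpha, the nuclear receptor through which fatty acids switch on their own breakdown in the liver. They were taken as the spots that carry one of these 3 symbols in the annotation of the array, which gave 6 of 16416 spots, 2 for each gene, and 3 of 4799 named genes. The 3 genes were chosen for their higher values in fasted than in control livers in an earlier look at the same arrays, so those values are given below as a description without a test. In fasted livers Cyp4a14 was 10.4-fold, Acot1 2.71-fold and Vnn1 2.33-fold higher than in control livers. In high-fat against control livers 0 of 3 genes passed an adjusted p of 0.05, where 0.0262% of all features (named genes and unnamed spots) passed as higher and 0.323% as lower, and a count of 0 is near that background.

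The study compared liver RNA of 15 C57BL/6 mice aged 12 to 16 weeks, 5 in each group. Fasted mice (numbers 11 to 15) had 2 weeks of chow and then a fast of 16 hours, high-fat mice (6 to 10) had 2 weeks of a high-fat diet, and control mice (1 to 5) had 2 weeks of chow. All were of the same strain, with no allele or agent named in the labels, and the sources used here give no sex for the mice. RNA of whole liver was amplified, labelled with the dyes Cy3 and Cy5, and 2 livers were set against each other on each 2-colour array, with a second array of the same livers, in reversed order in the title, for every pair. The study's design text describes dye swaps, which was followed here; the channel fields of the second arrays, set against their titles, would leave the dyes as they were. The 28 arrays gave 14 pairs: 4 of fasted over control, 5 of high-fat over control and 5 of fasted over high-fat.

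Each value below is a log2 ratio between the livers of a pair, in which 1 stands for a doubling. The authors' log base and direction are not stated. Base 2 was assumed, and the direction was read from the order of the livers in the sample titles, so it is likely and not certain: turning it would exchange higher and lower throughout. The arrays give ratios and no intensities, so the signal of these spots over background is unknown and levels of different genes cannot be set against each other. In whole liver, fewer cells of a type and less RNA per cell cannot be told apart.

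PPARalpha binds DNA as a pair with RXR, another nuclear receptor, at repeats of a short sequence, and is activated by fatty acids that reach the liver from adipose tissue during a fast. Its targets carry fatty acids into the cell, activate them, and oxidise them in peroxisomes, microsomes and mitochondria. Cyp4a14 is a microsomal cytochrome P450 that hydroxylates the end of the fatty acid chain. Acot1 is a cytosolic thioesterase that splits long-chain acyl-CoA into the free fatty acid and coenzyme A. Vnn1, or vanin 1, is a membrane-anchored pantetheinase, which splits pantetheine, a product of coenzyme A breakdown, into pantothenate and cysteamine.

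Of the 3 genes Acot1 has an entry in the RefSeq promoter table of assembly GRCm38.p6. The 250 bases before its start lie at chr12:84009252-84009501 on the plus strand and are shown because the receptor is known to bind near such starts. Capitals mark the stretch closest to the PPARalpha repeat AGGTCANAGGTCA, searched on both strands.
Acot1: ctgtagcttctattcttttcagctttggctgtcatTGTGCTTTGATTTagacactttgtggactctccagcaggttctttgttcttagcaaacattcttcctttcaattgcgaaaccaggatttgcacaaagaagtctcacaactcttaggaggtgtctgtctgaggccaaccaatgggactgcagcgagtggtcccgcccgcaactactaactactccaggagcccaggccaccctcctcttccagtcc
The stretch lies on the minus strand and matches 8 of the 12 defined bases. A stretch at least as close is found in 79.6% of 27025 mouse promoters of the same 300-base window, so the match does not set this promoter apart. The single AGGTCA repeat occurs 0 times in the Acot1 window, on either strand, and in 16% of the promoters. The arrays say nothing of binding there.

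The clustering of each gene with its relatives limits what its spots can be taken to measure. Cyp4a14 sits among other Cyp4a genes, with Cyp4a30b and Cyp4a10 as its nearest coding neighbours on GRCm38.p6. Acot1 stands beside Acot2, Acot4, Acot3, Acot5 and Acot6, and Vnn1 beside Vnn3. Close relatives can bind the same probe, and the probe sequences were not used here, so a value below belongs to the spots of that name and may include relatives.

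Cyp4a14 had the largest difference of the 3 genes between fasted and control livers. Its pair means of fasted over control were 3.71 for fasted 11 and control 4, 4.42 for fasted 15 and control 2, 3.30 for fasted 13 and control 5, and 3.04 for fasted 14 and control 3. The lowest single array of these 8 read 2.86 and the highest 4.56, so every array put the fasted liver higher. The direct pairs averaged 3.62 ± 0.60 (SD, n = 4 pairs).

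Acot1 was higher in each fasted liver too, with less agreement between the arrays of a pair. Its pair means of fasted over control were 1.79 for fasted 11 and control 4, 1.45 for fasted 15 and control 2, 1.87 for fasted 13 and control 5, and 1.18 for fasted 14 and control 3. The direct pairs averaged 1.57 ± 0.32 (SD, n = 4 pairs). In fasted 11 and control 4 the first array read 2.84 and the second 0.74, a wider gap than that between any of these pair means.

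Vnn1 had the narrowest spread. Its pair means of fasted over control were 1.55 for fasted 11 and control 4, 1.23 for fasted 15 and control 2, 1.19 for fasted 13 and control 5, and 1.27 for fasted 14 and control 3. The direct pairs averaged 1.31 ± 0.16 (SD, n = 4 pairs), and the 8 arrays ran from 0.86 to 1.71.

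**Figure D1:**
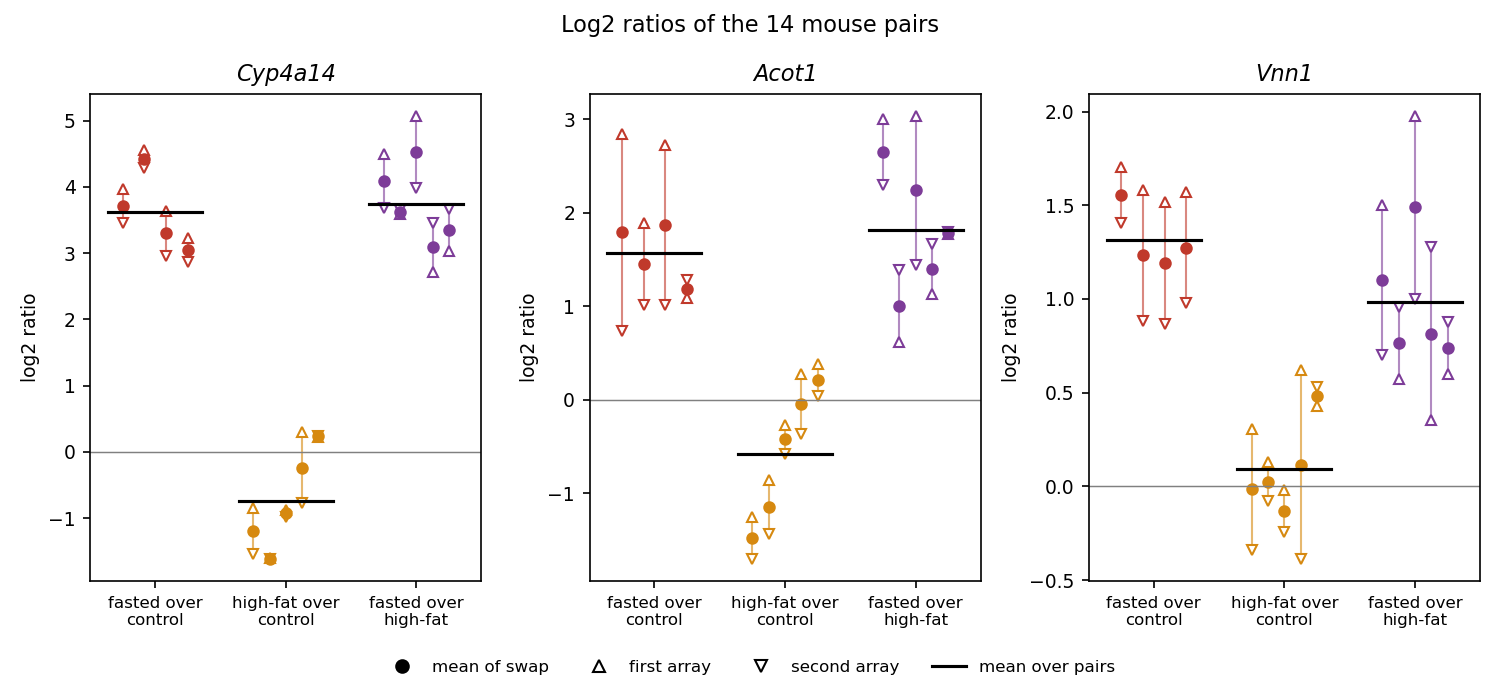
Log2 ratios of Cyp4a14, Acot1 and Vnn1 (y axes, separate scales) in the 14 mouse pairs by comparison (x axis); filled points are means of a dye swap, open triangles its first and second array, bars the mean over pairs, and pairs run from left to right as listed in the text. All pairs with a fasted liver lie above 0 for the 3 genes, and the pairs of high-fat over control lie on both sides of 0.

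A linear model over all 14 pairs, which also uses the indirect routes between groups, gave fasted minus control differences of 3.38 ± 0.24 for Cyp4a14, 1.44 ± 0.21 for Acot1 and 1.22 ± 0.10 for Vnn1 (log2 fit ± SE). These are the values behind the folds above. The gene was higher in the fasted liver in 4 of 4 pairs and 8 of 8 arrays for each of the 3. As the background, 3.36% of all 11457 features (named genes, and unnamed spots taken singly) were called higher and 4.59% lower in fasted than in control livers by limma at an adjusted p below 0.05. Because this contrast chose the genes, nothing is read from their place in it. With the first arrays alone the Acot1 difference was 1.90 and with the second arrays alone 0.98, and the same settings gave 1.47 and 0.97 for Vnn1.

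In each of the 5 pairs of fasted over high-fat livers Cyp4a14 had the largest ratio of the 3 genes and Vnn1 the smallest. Cyp4a14 read 4.09 for fasted 13 and high-fat 8, 3.62 for fasted 12 and high-fat 6, 4.53 for fasted 11 and high-fat 9, 3.09 for fasted 14 and high-fat 7, and 3.35 for fasted 15 and high-fat 10. Acot1 read 2.65, 1.00, 2.24, 1.40 and 1.78 in the same pairs. The low Acot1 pair, fasted 12 and high-fat 6, was not low for Cyp4a14.

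Vnn1 read 1.10, 0.77, 1.49, 0.82 and 0.74 in those pairs. All 3 genes were higher in the fasted liver in 5 of 5 pairs and 10 of 10 arrays. The pair of fasted 11 and high-fat 9 was the highest for Cyp4a14 and Vnn1, and the pair of fasted 13 and high-fat 8 the highest for Acot1.

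The model put fasted minus high-fat at 3.93 ± 0.23 for Cyp4a14 (15.3-fold), 1.91 ± 0.20 for Acot1 (3.77-fold) and 1.05 ± 0.10 for Vnn1 (2.08-fold; log2 fit ± SE). Among all features 2.7% were called higher and 2.77% lower by limma in this contrast. It shares the fasted livers with the contrast that chose the genes, so it too is given without a test. Set beside fasted minus control, the Cyp4a14 and Acot1 values were larger against high-fat livers and the Vnn1 value was smaller. In the model this is fixed by the signs of the high-fat differences below, so it adds no separate evidence for them.

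High-fat against control livers was not the contrast that chose the genes, but it is not free of that choice. It shares the control mice, and the model over all pairs also draws on the arrays with fasted livers. Cyp4a14 read −1.20 for high-fat 8 and control 4, −1.61 for high-fat 10 and control 3, −0.93 for high-fat 7 and control 5, −0.24 for high-fat 9 and control 2, and 0.23 for high-fat 6 and control 1. It was lower in 4 of 5 high-fat livers, and the pairs spread over more than the size of their mean, −0.75 ± 0.74 (SD, n = 5 pairs). Of the 10 arrays 3 put the high-fat liver higher, and those of high-fat 9 and control 2 read 0.30 and −0.77. Over all pairs the model gave −0.55 ± 0.23 (95% interval −1.03 to −0.07), with p = 0.0277 before and 0.709 after Benjamini-Hochberg adjustment in limma, which does not pass.

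Acot1 followed Cyp4a14 through these pairs. It read −1.48, −1.15, −0.43, −0.05 and 0.21 in the same order and averaged −0.58 ± 0.72 (SD, n = 5 pairs), lower in 4 of 5 high-fat livers. Here too 3 of 10 arrays put the high-fat liver higher, and those of high-fat 9 and control 2 read 0.28 and −0.37. The model gave −0.48 ± 0.20 (95% interval −0.90 to −0.06; limma, p = 0.0289, adjusted p = 0.734). The pair of high-fat 6 and control 1 alone was above 0 for both genes, and the mice outside the ring described below include this pair.

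Vnn1 did not share that pattern. It read −0.02 for high-fat 8 and control 4, 0.02 for high-fat 10 and control 3, −0.13 for high-fat 7 and control 5, 0.12 for high-fat 9 and control 2, and 0.48 for high-fat 6 and control 1. Its mean was 0.09 ± 0.23 (SD, n = 5 pairs). The model gave 0.17 ± 0.10 (95% interval −0.04 to 0.38; limma, p = 0.112, adjusted p = 0.994). The differences between the 3 genes in this comparison were not tested. From the 5 direct pairs alone, which hold no fasted liver, limma gave −0.75 for Cyp4a14 (adjusted p = 0.544), −0.58 for Acot1 (adjusted p = 0.921) and 0.09 for Vnn1 (adjusted p = 0.956).

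In all, 0 of 3 genes were called by limma in high-fat against control livers, and 2 of 3 had an unadjusted p below 0.05. Both unadjusted values come from the model that includes the fasted livers. Among all features 663 of 11457 had an unadjusted p below 0.05. The intervals leave room for a fall of about 1 log2 unit in Cyp4a14, so the missing call does not show that the livers were alike. Without high-fat 8 the Acot1 difference was −0.25, and with each array scaled to the same spread it was −0.72 (limma, adjusted p = 0.219), against −1.17 for Cyp4a14 (limma, adjusted p = 0.126).

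The layout of the arrays allows a level for single livers. A closed ring is formed by 12 mice, in which each liver was set against 1 liver of each other group, and least squares over those pairs gave each a log2 level relative to the mean of the 4 controls in the ring. Fasted 12, high-fat 6 and control 1 were hybridised with each other alone and have no level on this scale. The levels are a description and carry no test.

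Fasted livers held the 4 highest Cyp4a14 levels: 3.60 in fasted 13, 3.58 in fasted 11, 3.31 in fasted 14 and 2.85 in fasted 15. The high-fat levels were −0.06 in mouse 7, −0.77 in mouse 8, −1.24 in mouse 9 and −0.78 in mouse 10. The controls lay at −1.28 in mouse 2, 0.55 in mouse 3, 0.15 in mouse 4 and 0.58 in mouse 5. Controls spanned 1.87 log2 units, more than the fasted and more than the high-fat livers. Control 2 had the lowest level, close to that of high-fat 9. The direct pair of high-fat 9 and control 2 read −0.24, with high-fat 9 the lower, so the order of these livers is not settled.

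The Acot1 levels of fasted livers were 2.02 in mouse 11, 1.73 in mouse 13, 1.16 in mouse 14 and 0.94 in mouse 15. High-fat livers read −0.34 in mouse 7, −1.03 in mouse 8, −0.33 in mouse 9 and −0.95 in mouse 10, and controls −0.40 in mouse 2, 0.09 in mouse 3, 0.34 in mouse 4 and −0.03 in mouse 5. High-fat mice 8 and 10 were below all 4 controls, whereas high-fat mice 7 and 9 lay just above control 2.

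The Vnn1 levels of fasted livers were 1.54 in mouse 11, 1.34 in mouse 13, 1.12 in mouse 14 and 0.88 in mouse 15. High-fat livers ran from −0.05 in mouse 9 to 0.21 in mouse 7, inside the control range of −0.26 in mouse 2 to 0.25 in mouse 5. For Acot1 and Vnn1 the fasted mice had the same order, with mouse 11 first and mouse 15 last, and mouse 15 was also last for Cyp4a14.

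Group means put fasted livers at 3.34 ± 0.35 for Cyp4a14, 1.46 ± 0.50 for Acot1 and 1.22 ± 0.28 for Vnn1 (SD, n = 4 livers). High-fat livers averaged −0.71 ± 0.49, −0.66 ± 0.38 and 0.09 ± 0.11 for these genes (SD, n = 4 livers). The controls, at 0 by construction, had SDs of 0.88, 0.31 and 0.21 (n = 4 livers). For each gene the fasted levels stood clear of both other groups, and the high-fat and control levels overlapped.

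**Figure D2:**
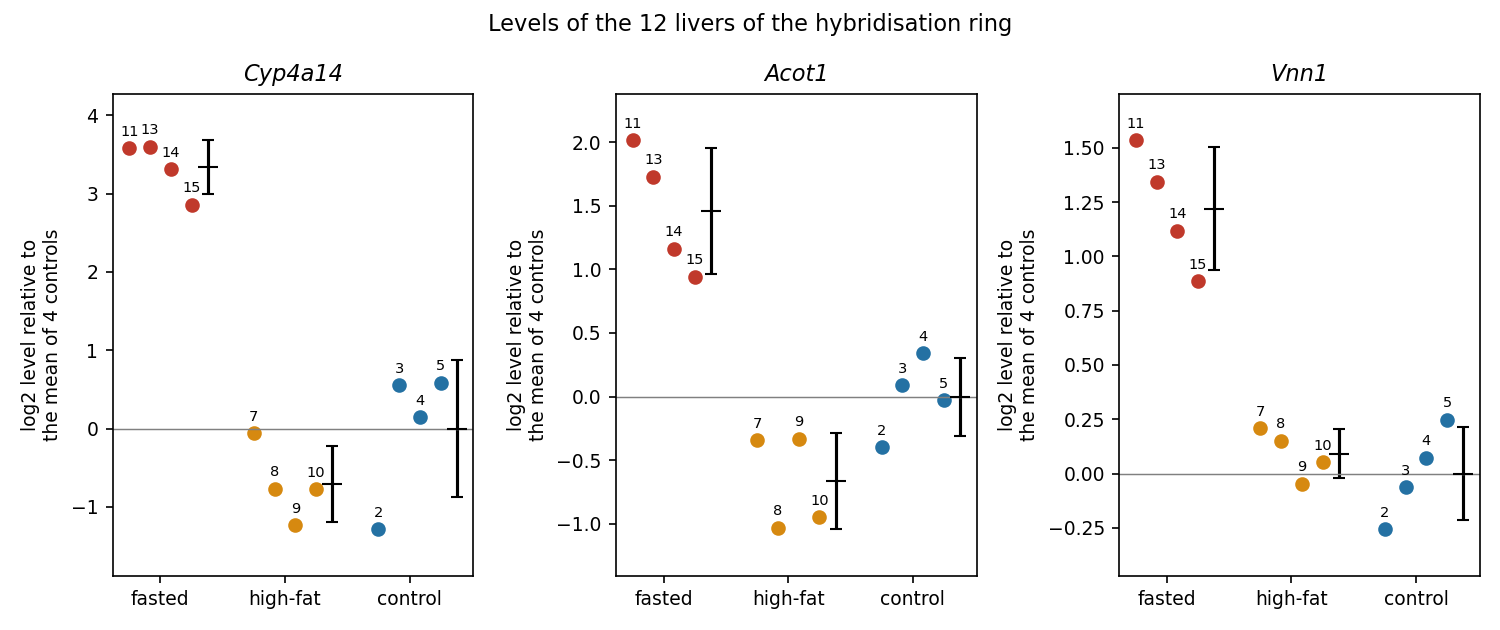
Log2 level of each of the 12 livers in the ring relative to the mean of its 4 controls (y axes, separate scales), by group (x axis), with mouse numbers above the points and the mean ± SD of each group as a bar. The fasted livers lie above all others for the 3 genes, from 2.85 upward for Cyp4a14, and control 2 is the lowest control for each gene.

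The ring also checks the measurement, since going once round it should return to 0. The signed sum over its 12 pairs was 3.40 for Cyp4a14, 1.33 for Acot1 and 1.12 for Vnn1, which is 0.283, 0.110 and 0.0932 per pair. Over all features the median size of this sum was 0.57 and the 99th percentile 2.59, so the Cyp4a14 sum lies in the upper tail.

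The sum has a plain reading in terms of routes. In the ring, 4 pairs measured fasted over control directly and averaged 3.62 for Cyp4a14, against 2.77 when fasted over high-fat and high-fat over control were added. The same routes gave 1.57 and 1.24 for Acot1, and 1.31 and 1.03 for Vnn1. The direct route was the larger for all 3 genes, by 0.85, 0.33 and 0.28. Outside the ring, the chain of fasted 12, high-fat 6 and control 1 added up to 3.85 for Cyp4a14, 1.21 for Acot1 and 1.25 for Vnn1, from 1 mouse of each group.

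Both arrays of each swap with a fasted liver put the same liver higher. In 9 of 9 swaps with a fasted liver the deposited value was positive on the first and negative on the second array for each gene, which bears on the relative direction of the arrays and not on the absolute one. In swaps of high-fat over control the signs were opposite in 4 of 5 for Cyp4a14, 4 of 5 for Acot1 and 2 of 5 for Vnn1. The part of the deposited value that kept its sign between the arrays of a swap, which would be that of the Cy5 dye if the dyes were exchanged, averaged 0.15 ± 0.28 for Cyp4a14, 0.28 ± 0.41 for Acot1 and 0.16 ± 0.28 for Vnn1 (SD, n = 14 swaps). Its size over all features had a median of 0.137 and a 90th percentile of 0.342, and the Acot1 value lies between these.

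The 2 spots of each gene gave a second check. They differed by a median of 0.0816 for Cyp4a14, 0.232 for Acot1 and 0.0852 for Vnn1 over the 28 arrays. The widest gap was 2.66, for Acot1 on the first array of fasted 14 and control 3, where one spot read −0.24 and the other 2.42. The next widest Acot1 gap was 0.908. Taken alone, the first Acot1 spot gave a fasted minus control difference of 1.33 and the second 1.55.

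**Figure D3:**
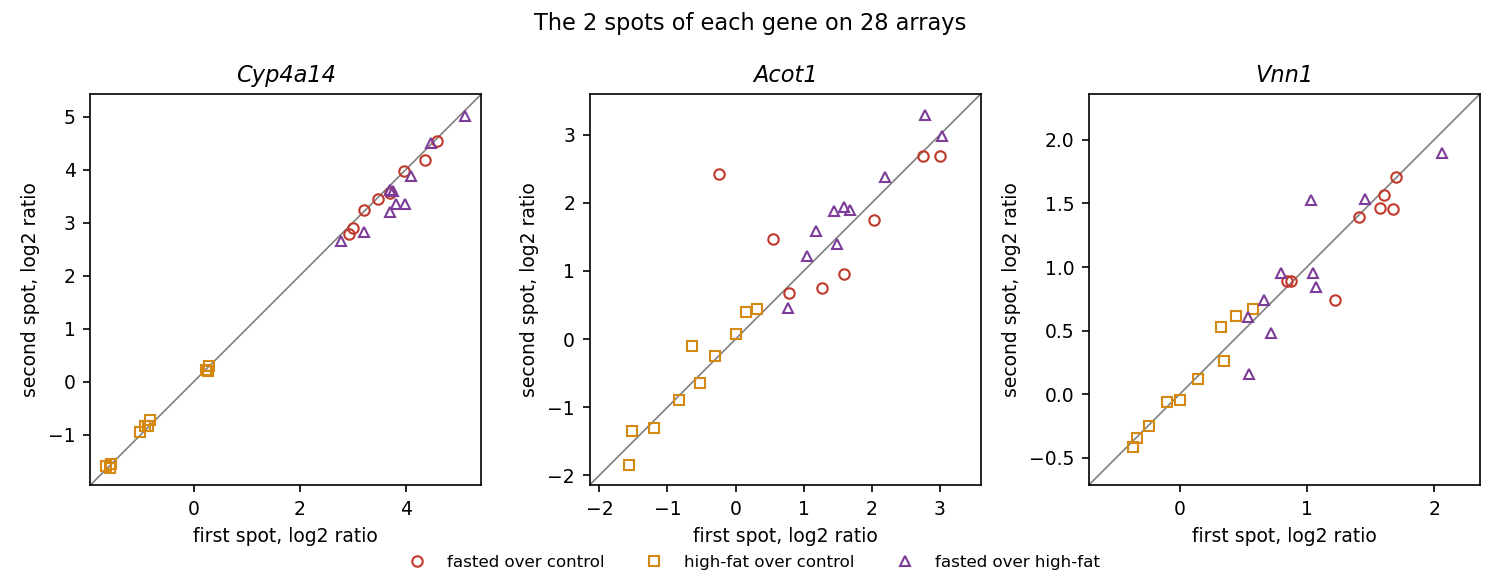
Log2 ratio of the second spot (y axes) against the first spot (x axes) of Cyp4a14, Acot1 and Vnn1 on the 28 arrays, with marks by comparison and a line of equal values. Points follow the line for Cyp4a14 and Vnn1; for Acot1 one array of fasted over control stands off it, at −0.24 and 2.42.

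The genes resembled each other in their course over the 14 pairs. The cosine, a correlation that is not centred and does not depend on how a pair is turned, was 0.958 between Cyp4a14 and Acot1, 0.951 between Cyp4a14 and Vnn1, and 0.896 between Acot1 and Vnn1. The pairs share mice and arrays, and genes chosen on 1 contrast share its large values, so the cosines are a description. The median size of the cosine with the other 4796 named genes was 0.310 for Cyp4a14, 0.287 for Acot1 and 0.311 for Vnn1.

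The 5 named genes most like Cyp4a14 over the 14 pairs were Pkm (cosine 0.993), H2-Ke6 (0.983), Aldoa (0.976), Ech1 (0.975) and Ldhb (0.972). Pkm, Aldoa and Ldhb encode glycolytic enzymes (the muscle type of pyruvate kinase, aldolase A and a lactate dehydrogenase subunit), and Ech1 a peroxisomal and mitochondrial isomerase of unsaturated fatty acids. The Pkm spots had fitted differences of 3.40 for fasted minus control and −0.72 for high-fat minus control, next to 3.38 and −0.55 for the Cyp4a14 spots. The annotation of the Pkm spots was not checked against a probe sequence, so whether they measure Pkm was not tested. Ldhb stood at 2.13 and Aldoa at 1.35 for fasted minus control.

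For Acot1 the most alike were H2-Ke6 (cosine 0.969), Psmd4 (0.967), Cbr1 (0.961), Slc25a20 (0.956) and Cpt2 (0.950). Slc25a20, the carnitine-acylcarnitine carrier, and Cpt2, which rebuilds acyl-CoA inside mitochondria, belong to the mitochondrial import of fatty acids, while Psmd4 encodes a proteasome subunit and Cbr1 a carbonyl reductase. The fasted minus control difference was 0.46 for Slc25a20, 0.32 for Cpt2, 0.62 for Psmd4 and 0.97 for Cbr1.

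For Vnn1 they were Rbm3 (cosine 0.989), Bnip3 (0.983), Plcb3 (0.972), Abcb11 (−0.966) and Lifr (−0.965). Rbm3 encodes an RNA-binding protein known for its induction by cold, Bnip3 a mitochondrial protein of mitophagy, and Plcb3 a phospholipase C. Abcb11, the bile salt export pump, and Lifr, a cytokine receptor, ran the opposite way, with fasted minus control differences of −1.76 and −1.39. Rbm3 stood at 1.12 and Bnip3 at 1.40, near the 1.22 of Vnn1.

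Part of the measured genes of fatty acid oxidation were higher in fasted than in control livers, where 3.36% of all features were higher and 4.59% lower. Of 21 listed peroxisomal and microsomal genes 9 had a named spot; 5 were higher in fasted than in control livers, 0 lower and 4 did not pass (median difference 0.50, against 0.01 over all features). Hsd17b4, the peroxisomal bifunctional enzyme, rose by 0.56 ± 0.09 (limma, adjusted p = 0.000408), Ech1 by 0.59 ± 0.08 (adjusted p = 0.000212), and Slc27a2, a fatty acid transporter and very long-chain acyl-CoA synthetase, by 0.59 ± 0.07 (adjusted p = 5.37e-05; log2 ± SE). Decr2, a peroxisomal dienoyl-CoA reductase, rose by 0.50 ± 0.09 (adjusted p = 0.00221), and its sign turned with the second arrays alone. Eci2, an enoyl-CoA isomerase, lost its call without fasted 11.

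Of 22 listed genes of mitochondrial oxidation and ketogenesis 8 had a named spot. Of these 6 were higher in fasted than in control livers, 0 lower and 2 did not pass (median 0.41). The shares over all features were 3.36% higher and 4.59% lower. The medium-chain and long-chain dehydrogenases Acadm and Acadl rose by 0.45 ± 0.08 (limma, adjusted p = 0.00105) and 0.48 ± 0.09 (adjusted p = 0.00164). The carrier Slc25a20 rose by 0.46 ± 0.09 (adjusted p = 0.00258), and the carnitine transporter Slc22a5 by 0.61 ± 0.15 (adjusted p = 0.0139), a call lost without fasted 11, fasted 13, control 4 or control 5. Without fasted 11 alone, 3 of the 6 mitochondrial calls were left. Of these 6, Cpt2 lost its call in 12 and Eci1 in 5 of the 15 fits that left out 1 mouse. Ehhadh, Cyp4a10 and Cpt1a were among the listed oxidation genes without a named spot.

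**Figure D4:**
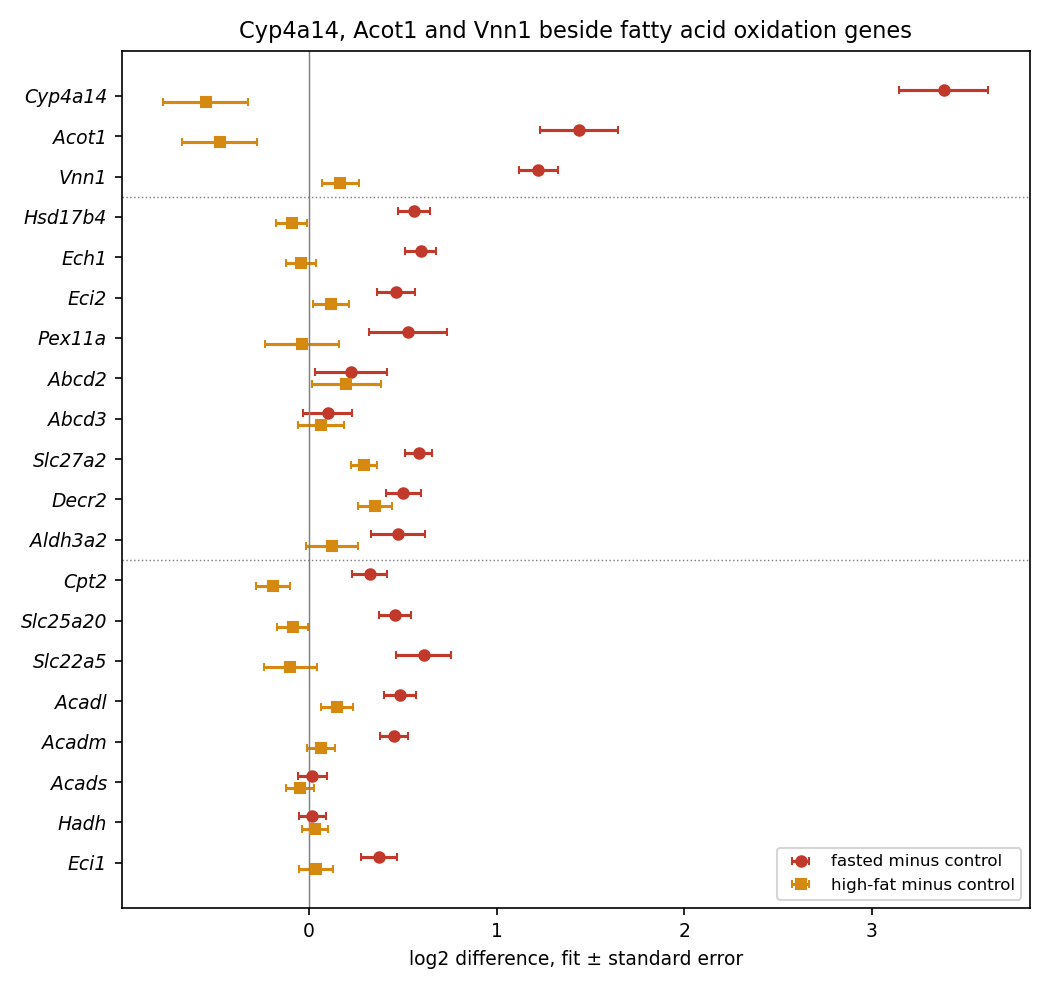
Log2 differences (x axis, fit ± SE) of fasted minus control and high-fat minus control for Cyp4a14, Acot1 and Vnn1 (top), 9 peroxisomal and microsomal genes (middle) and 8 mitochondrial genes (bottom). The fasted minus control differences of the oxidation genes run up to 0.61; those of the 3 genes at the top chose them and are shown for scale.

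Most lipid handling genes did not pass in fasted against control livers. The shares over all features were 3.36% higher and 4.59% lower. Of 21 listed genes 16 had a named spot, of which 2 were higher, 1 lower and 13 did not pass (median −0.02). The count of 1 lower gene is near the share over all features. Fabp2, the intestinal type of fatty acid binding protein, rose by 0.81 ± 0.12 (limma, adjusted p = 0.000289), while Fabp1, the liver type, fell by 1.30 ± 0.19 (adjusted p = 0.000321). Apoa1, the main protein of high-density lipoprotein, rose by 0.37 (adjusted p = 0.0172), and its call was lost without fasted 11, fasted 15, control 2 or control 4.

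Of 19 other listed PPARalpha-regulated genes 10 had a named spot, of which 1 was higher in fasted than in control livers, 2 lower and 7 did not pass. The shares over all features were 3.36% higher and 4.59% lower. Ctsl, a lysosomal protease, rose by 0.77 ± 0.13 (limma, adjusted p = 0.000872), and Aqp7, a glycerol channel, fell by 0.98 ± 0.10 (adjusted p = 9.87e-06). Me1, malic enzyme, fell by 0.35 ± 0.08 (adjusted p = 0.00874), a call lost without fasted 11 or control 4. The hormone gene Fgf21 read 0.47 (adjusted p = 0.0728), Pdk4, the kinase that shuts pyruvate dehydrogenase, 0.15 (adjusted p = 0.499), and the lipase inhibitor Angptl4 −0.10 (adjusted p = 0.768), none past the threshold.

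Taken over these 4 lists, 14 of 43 measured genes were higher in fasted than in control livers, 3 were lower and 26 did not pass, with a median of 0.22, against 3.36% higher and 4.59% lower over all features. Without fasted 11 the higher calls numbered 9. All 4 lists were chosen with earlier results of these data known, so their counts beside the shares over all features are a description. In fasted against high-fat livers 11 were higher, 5 lower and 27 did not pass (median 0.09), against 2.7% and 2.77% over all features. The higher calls numbered 7 without fasted 11, fasted 13, high-fat 7, high-fat 8 or control 4, and the lower calls 3 without fasted 11, fasted 13 or high-fat 8. The calls included Hsd17b4 at 0.65 (limma, adjusted p = 7.11e-05), Ech1 at 0.64 (adjusted p = 7.32e-05) and Cpt2 at 0.52 (adjusted p = 0.00161), with Fabp1 at −1.48 (adjusted p = 6.4e-05), and these 4 passed in all 15 fits that left out 1 mouse. In contrast, Eci2 and Eci1 lost their calls in 11 of those fits, Me1 in 10, Slc27a2 and Acadl in 7 and Pltp in 4. The 2 comparisons share the fasted mice.

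In high-fat against control livers 1 of the 43 was higher, 0 lower and 42 did not pass (median 0.03). The shares over all features in this comparison were 0.0262% higher and 0.323% lower. The call was Fabp2, at 1.38 ± 0.11 (limma, adjusted p = 1.91e-06), and it passed in all 15 fits that left out 1 mouse. Fasted and high-fat livers thus both had more Fabp2 than control livers, and Fabp2 was lower in fasted than in high-fat livers by −0.57 (adjusted p = 0.00448). Fgf21 read 0.48 in high-fat minus control (adjusted p = 0.341).

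The receptor and its partners were measured as transcripts in 8 of 18 listed genes, of which 0 passed in any of the 3 comparisons by limma. Over all features 3.36% were higher and 4.59% lower in fasted against control livers. The shares were 0.0262% and 0.323% in high-fat against control, and 2.7% and 2.77% in fasted against high-fat livers. A count of 0 among 8 genes is near these shares. Ppara itself read −0.01 in fasted minus control, and Rxra, its partner, 0.19 (adjusted p = 0.208). These are levels of transcript and say nothing of the activity of the receptor.

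Relatives of the 3 genes were sparsely measured. Cyp4b1, the 1 measured gene of the Cyp4 family list, read −0.01 in fasted minus control (limma, adjusted p = 0.963). Of the thioesterase list, Acot9 read 0.10 (adjusted p = 0.609) and Baat, which conjugates bile acids, 0.26 (adjusted p = 0.0904); Baat was higher in fasted than in high-fat livers by 0.42 (adjusted p = 0.00482).

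Vnn3, the neighbour of Vnn1 and a pantetheinase as well, was the 1 measured gene of the coenzyme A list. It rose by 0.38 ± 0.10 in fasted livers against control (limma, adjusted p = 0.0264), and read 0.21 in high-fat minus control (adjusted p = 0.846). The call was lost in 6 of 15 fits that left out 1 mouse (fasted 13, fasted 15, high-fat 6, high-fat 9, high-fat 10 or control 2), and its sign turned with the second arrays alone.

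The makeup of the livers was followed through marker genes. As the background, 3.36% of all features were called higher in fasted than in control livers and 4.59% lower. In fasted against control livers 1 of 5 measured hepatocyte markers was lower (Ttr, −0.74, whose sign turned with the first arrays alone) and 0 higher, and 4 did not pass. Of 6 measured macrophage markers 4 were lower (median −0.44), and of 6 endothelial markers 2 were lower (median −0.08). Among neutrophil markers 1 of 6 passed (Camp, lower), with a median of −0.004 over the list. Of 2 stellate cell markers 1 passed (Dcn, higher, whose sign turned with the second arrays alone). Of 2 adipocyte markers 1 passed (Car3, lower), and of 2 erythroid markers 1 (Hba-a1, lower). No change in the number of these cells is read from 1 gene each. The calls of the macrophage markers Clec4f and C1qa, the endothelial markers Kdr and Tek, and of Dcn and Hba-a1 were lost in 1 to 12 of the 15 fits that left out 1 mouse. The part of these shifts in the results for Cyp4a14, Acot1 and Vnn1 was not tested.

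Kidney tubule, enterocyte, skeletal muscle and cholangiocyte markers gave 0 calls in fasted against control livers (limma). Their medians were 0.07 for 5 kidney markers, 0.10 for 4 enterocyte markers, 0.05 for 4 muscle markers and −0.09 for 2 cholangiocyte markers. Over all features 3.36% were higher and 4.59% lower there, and 0 calls among so few markers is near those shares. In high-fat against control livers 0 of the markers of any list passed, where 0.0262% of all features passed as higher and 0.323% as lower. The ratios do not show which defining markers are at background, since intensities were not used here.

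One hybridisation stood apart in spread: the second array of fasted 15 and control 2 had the highest SD over its spots, 1.26, where the lowest array had 0.29. Without that pair, fasted minus control was 3.20 for Cyp4a14, 1.44 for Acot1 and 1.22 for Vnn1. High-fat minus control was then −0.64, −0.47 and 0.16 for these genes, with 0 of 3 called by limma.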

How the data were processed

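Liver RNA of 15 mice was compared on 28 2-colour arrays. The deposited values are the authors' processed log ratios of the dyes, taken as log2. The submitters' processing notes list limma without a version or role, and the sources used here give no background correction or normalization. All 16416 spots had a value, and 0 columns lacked a sample. The array medians ran from −0.23 to 0.35. Of the spots 9758 carried a symbol and 6658 did not. All 4799 symbols matched RefSeq (GRCm38.p6).

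Here each ratio was turned to fasted over control, high-fat over control or fasted over high-fat, the arrays of a swap were averaged as 1 replicate, and the spots of a gene were averaged. Generalised least squares, with a covariance between pairs that share a mouse (18.0% of the variance, the 15%-trimmed mean over features), was fitted in limma 3.58.1 (R 4.3.3) with 12 residual and 4.51 prior degrees of freedom. Benjamini-Hochberg adjustment ran over 11457 features, with a threshold of 0.05. The number of arrays, and of the mice behind them, limits the precision.

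The genes and all lists were chosen with earlier results of these data known. Genes were named by rule: the 3 genes, the 5 most alike by cosine, up to 4 called genes of each list with the smallest p, and a set of well-known targets and relatives. Marker genes past the threshold were named after their values were seen, and so were Apoa1, Me1 and the other list genes given as exceptions. Alternatives were array centring and scaling, single arrays or spots, other variance shares, direct pairs, and leaving out mice or a pair.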

Additional observations from a re-analysis of the deposited data

How the results depend on the processing

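The signs of Cyp4a14 and Acot1 in all 3 comparisons, and of Vnn1 in both comparisons with fasted livers, held under every alternative run. Vnn1 in high-fat minus control turned to −0.046 (limma, adjusted p = 0.937) with the second array of each swap alone. No alternative called any of the 3 genes in high-fat minus control; the nearest was Acot1 with the second arrays alone (−0.77, adjusted p = 0.0615), against −0.18 with the first arrays alone (adjusted p = 0.764). For fasted minus control, first and second arrays alone gave 1.90 and 0.98 for Acot1 and 1.47 and 0.97 for Vnn1. Leaving out 1 mouse at a time, fasted minus control ran from 3.14 to 3.55 for Cyp4a14, 1.29 to 1.55 for Acot1 and 1.11 to 1.27 for Vnn1. High-fat minus control then ran from −0.73 to −0.33, −0.66 to −0.25 and 0.09 to 0.23, and fasted minus high-fat from 3.79 to 4.11, 1.71 to 2.13 and 0.95 to 1.13.

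Counts of called features depended more on the setting. Fasted against control had 911, with 3630 from the first arrays alone, 165 with a variance share of 0.9, 114 from the direct pairs alone, and 515 (without fasted 11) to 1004 when 1 mouse was left out; without control 4 or control 5 it was at most 558. High-fat against control had 40, with 88 after scaling, 646 and 93 from first and second arrays alone, 9 with a share of 0.9, 22 from direct pairs, 62 without the pair of fasted 15 and control 2 (added after seeing the data), and 14 (without high-fat 9) to 75 (without fasted 15) when 1 mouse was left out. Fasted against high-fat had 626, with 1091 and 160 from first and second arrays alone, 115 with a share of 0.9, 156 from direct pairs, and 361 (without fasted 11) to 853 when 1 mouse was left out. The higher and lower calls of fasted against control split 385 to 526, and 430 to 391 after scaling; those of high-fat against control split 3 to 37, 11 to 45 after centring and 37 to 51 after scaling. Of the 43 genes in the 4 PPARalpha lists, 24 instead of 14 were higher in fasted livers with the first arrays alone. In high-fat livers 7 instead of 1 were with the first arrays alone and 2 after centring. The list counts were not run with the second arrays alone. When 1 mouse was left out (added after seeing the data), these counts ran from 9 to 16 in fasted against control livers, and from 7 to 11 higher and 3 to 6 lower in fasted against high-fat livers. The causes were not tested. No paired analysis was possible because no mouse number in the titles is shared between groups; the hybridised pairs are themselves the units of the model and of the fit to direct pairs. A background correction and a filter on dim spots were not run, since no intensities were used here, and signal over background is unknown.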
